A study of Zea mays with 12 samples.

Results

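The persistent synergid of maize shortly before it disappears, 24 h after pollination (24 HAP, pSC24), was compared with the synergid of the unpollinated ovule (0 HAP, SC). The comparison takes in every gene of the deposited count table and spans the whole life of this cell after pollination. Of the 45246 genes and loci in the table, 21143 had enough counts to be tested. Both groups are cells of the inbred line B73, with no transgene or mutation in the labels, and each was sequenced as 3 libraries, pSC24 replicates 1 to 3 and SC replicates 1 to 3. Each library pooled 25 to 28 cells, freed from the ovule with wall-digesting enzymes and picked with a glass needle, and its cDNA was amplified before sequencing. Libraries of the intermediate stages at 12 and 18 HAP also entered the fit, where they shared in the estimate of the spread and in the choice of the genes tested. With the 6 libraries of the end points alone 19478 genes were tested. The study treats the libraries as biological replicates, but the sources used here do not say whether the cells of a group came from separate plants. The p-values therefore measure the spread between these libraries, which may be partly technical.

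Synergids are a pair of gland-like cells beside the egg cell. Through a folded wall at their tip, the filiform apparatus, they secrete peptides and wall-modifying proteins that guide the pollen tube and stop its growth. One of the pair bursts when the pollen tube arrives, while the other, the persistent synergid, stays intact for some hours and is then removed by degeneration and by fusion with the endosperm. Programmed cell death in plants commonly involves proteases and nucleases that digest the cell content, autophagy that delivers it to the vacuole, and NAC and ethylene-responsive transcription factors upstream of them.

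The pSC24 libraries held 20319633, 25897204 and 24895973 fragments counted on genes, and the SC libraries 18391933, 18369408 and 20046467. Across genes, log2 levels correlated between replicates at 0.952 to 0.961 in pSC24 and at 0.975 to 0.977 in SC. By the share of reads mapped, the 3 SC libraries and pSC24 replicate 1 belong to a lower set and pSC24 replicates 2 and 3 to a higher one. The mapping set and the stage are therefore partly confounded, and within the lower set 1 pSC24 library remains. Levels are the deposited FPKM, fragments scaled by gene length and library depth. They are given for every library in replicate order, so that genes of different length can be compared.

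The cell type labels were set beside the levels of marker genes. The 8 synergid markers summed to 104016 to 137163 FPKM in pSC24, against 114601 to 137096 FPKM in SC, and the lists for other cells summed to far less. Several of these markers, ZmSC1 among them, were named by the study for high levels in these same libraries. Their high sum in SC is therefore no independent check of the label. Within the sum, ZmSC1, one of 3 markers held, averaged 66257 FPKM in pSC24, while 4 of the 8, all transcription factors, were lower. Descriptions naming pollen gave 73.3 to 133 FPKM in pSC24, against 86.3 to 109.9 FPKM in SC. Those naming chlorophyll-binding proteins, photosystems or the small subunit of Rubisco gave 47.3 to 54 FPKM in pSC24, against 47.2 to 58.8 FPKM in SC, with 56 of their 88 genes at 0 in all 6 libraries. The 2 genes described as egg cell-secreted proteins gave 42.8 to 119 FPKM in pSC24, against 172 to 428 FPKM in SC. Endosperm descriptions gave 1158 to 1828 FPKM in pSC24, against 1194 to 2079.8 FPKM in SC. Of these 39 genes, 30 were at 0 in all 6 libraries, and most of the sum came from a single locus without an annotated gene. The part of RNA from neighbouring cells in the results below was not tested.

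Between the end points, 2170 genes were higher in pSC24 than in SC, 10.3% of those tested, and 1600 were lower, 7.57%. A call needed a Benjamini-Hochberg adjusted p under 0.05 in edgeR's quasi-likelihood test and a log2 fold change beyond 1 or -1. Fold changes are pSC24 over SC after TMM scaling, which sets the bulk of genes equal between libraries, and are given with ± their standard error (SE). A missed threshold does not show that a gene kept its level. A gene was therefore called held only where the 95% interval of its log2 fold change lay wholly between -1 and 1. By this rule 6042 genes were held, 28.6%, and the remaining 11331 genes, 53.6%, were unresolved, with a median interval width of 2.95 log2 units against 0.83 in held genes. In a pool of isolated cells, a lower level can mean less RNA per cell or fewer cells that express the gene, and these cannot be told apart. Of the calls, 57.6% were higher genes. With libraries scaled by their total counts in place of TMM this share was 72.3% and the median of all genes lay at 0.28 instead of 0.05 log2 units. With DESeq2 size factors the share was 58.5%.

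**Figure D1:**
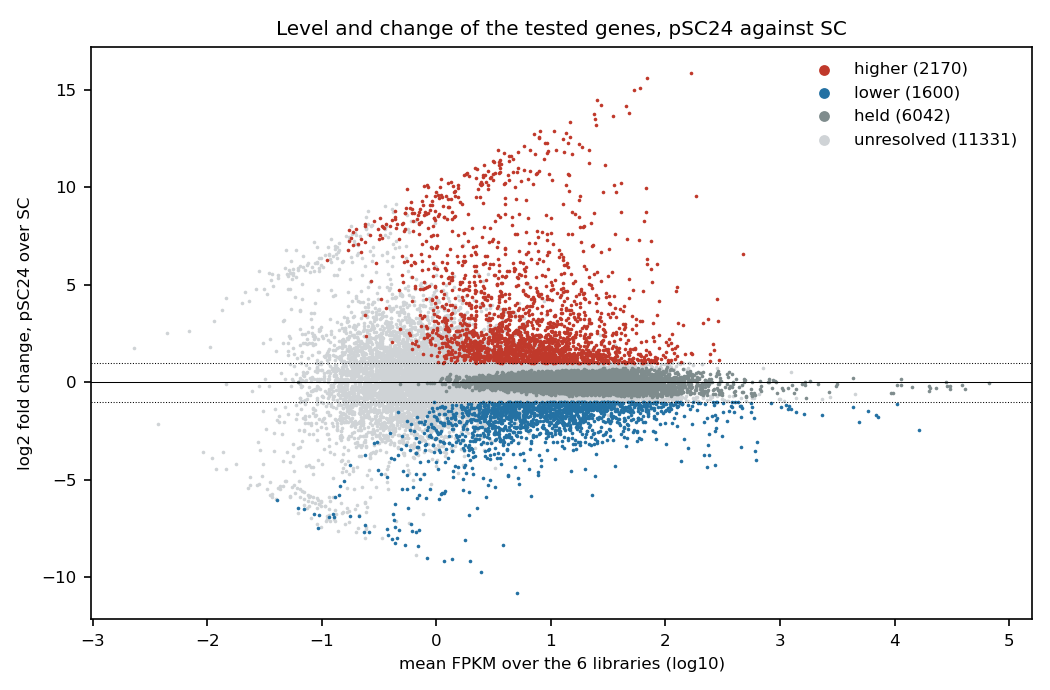
Log2 fold change of pSC24 over SC against the mean FPKM of the 6 libraries (log10 axis) for the tested genes, coloured by call. The 6 tested genes at 0 FPKM in all 6 libraries are not drawn, and the dotted lines mark log2 fold changes of 1 and -1. Held genes fill the middle at high levels, and the largest changes are rises of genes near 0 in SC.

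Gained and lost genes differed in size and level. The median change was 2.18 log2 units in size among higher genes and 1.63 among lower genes. Of the higher genes 782 changed by more than 8-fold, and of the lower genes 226. Higher genes together took 5.76% to 6.38% of the summed FPKM in the pSC24 libraries, against 1.13% to 1.29% in the SC libraries. Lower genes took 6.34% to 7.34% in pSC24, against 17.2% to 17.9% in SC. Held genes took 76.9% to 77.3% in pSC24, against 71.2% to 71.8% in SC. The transcript pool of the cell thus remained mostly that of genes that held their level, and 81 of the 100 highest genes were shared by the stages. Of the 100 highest genes in SC, 31 were lower in pSC24, 55 were held and none was higher. Only 7 of the 100 highest in pSC24 were higher than in SC. The interval rule favours high levels: 65.5% of the 1478 genes with a mean over 50 FPKM were held, but 6.05% of the 10890 genes under 5 FPKM.

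Within the lower mapping set, pSC24 replicate 1 could be set against SC. In it 2161 of the 2170 higher genes lay above all 3 SC libraries, 99.6%, where 39.5% of all tested genes did. Of the 1600 lower genes 1591 lay below all 3, 99.4%, where 33.4% of all tested genes did. These calls used replicate 1 itself, so this is a description. With a term for the mapping set in the fit, 1351 genes were higher, 1177 lower and 3960 held. Without pSC24 replicate 3 the counts were 1853, 1682 and 5419. Among all tested genes the 3 pSC24 libraries lay above the 3 SC libraries for 23.9% and below them for 20.6%.

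Genes were grouped by words in the deposited description, which gives for most genes the closest Swiss-Prot protein, often of another species, and the protein domains. Of 52 such classes 50 had at least 10 tested genes. More genes were higher than lower in 33 classes, fewer in 14 and as many in 3. In 28 classes all 3 pSC24 libraries gave a higher share of the summed FPKM than the 3 SC libraries, in 4 a lower one, and in 18 the libraries overlapped. The summed FPKM of a library was 739106 to 883135 in pSC24, against 906965 to 988342 in SC, so a class of held genes can take a higher share. The counts of each class stand beside 10.3% higher, 7.57% lower and 28.6% held over all tested genes. Members of a class are not replicates, and near-identical copies share reads in a way the sources used here do not describe.

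**Figure D2:**
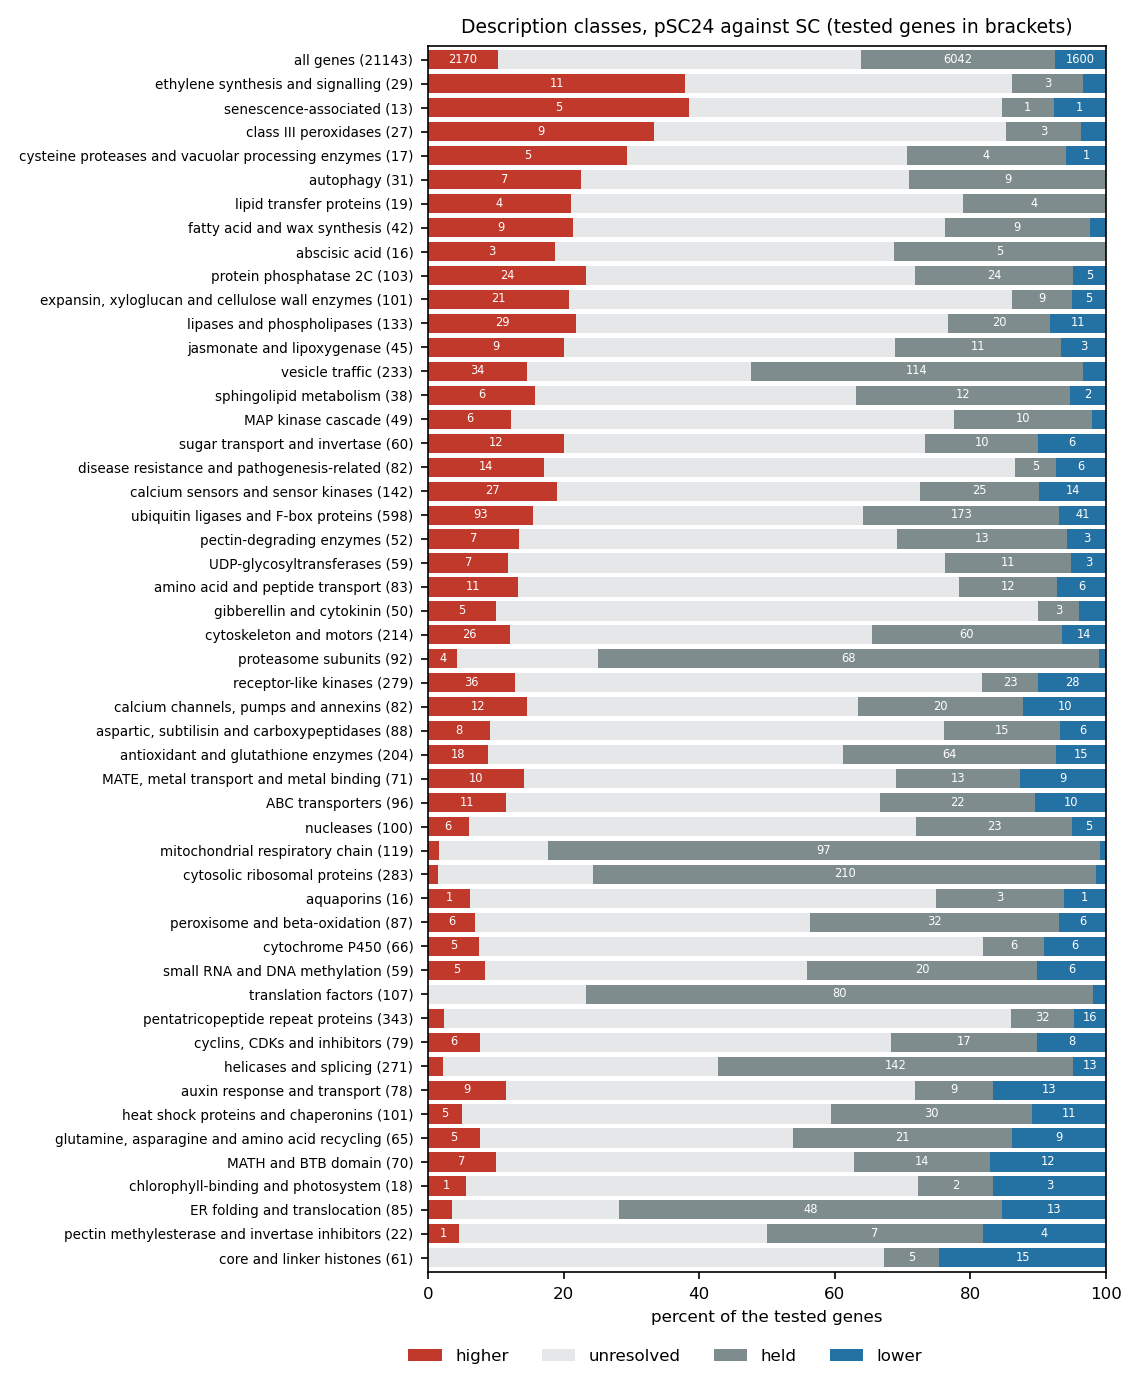
Percent of the tested genes of each description class that were higher in pSC24, unresolved, held or lower, with numbers of genes in the bars and all genes in the top row. Classes are ordered by the difference between higher and lower genes, from ethylene genes, with 11 of 29 higher, to histones, with 15 of 61 lower.

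The secreted proteins of the synergid included abundant genes that were held and others that fell. The 22 tested genes for inhibitors of pectin methylesterase and invertase, small secreted proteins, took 16.2%, 14.7% and 15.8% in pSC24, against 15.5%, 14.5% and 15.7% in SC. ZmSC2 (Zm00001eb304190), one of them, stood at 37527, 31425 and 41145 FPKM in pSC24, against 44159, 43457 and 50181 FPKM in SC and was held, with every pSC24 library below SC. Of the whole class 7 genes were held, 31.8% beside 28.6% over all genes, 4 were lower, 18.2% beside 7.57%, and 1 was higher. The higher gene was Zm00001eb242990 on chr5:173166986-173167819, closest to Pectinesterase inhibitor 8 of rice, at 402, 642 and 499 FPKM in pSC24, against 73.7, 55 and 45.5 FPKM in SC (log2 fold change 3.14 ± 0.29, adjusted p = 1.3e-05). Each pSC24 library was several times the highest SC library. ZmSC4, a xyloglucan-modifying enzyme gene, and ZmSC11, a pectate lyase gene, were held too, at 25713, 26678 and 27928 FPKM in pSC24, against 32059, 36725 and 34293 FPKM in SC, and at 17791, 18542 and 19041 FPKM in pSC24, against 22715, 23182 and 21494 FPKM in SC. For both, all pSC24 libraries lay below SC by less than the margin of 1 log2 unit. Abundant genes that fell, such as ZmSC8, are given with the study-named genes at the end.

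In a further wall class higher genes outnumbered lower ones. Among 101 tested genes for expansins and for xyloglucan- and cellulose-acting enzymes, 21 were higher, 5 lower and 9 held, with a median log2 fold change of 0.66 against 0.05 over all genes. Zm00001eb215310, closest to Endoglucanase 10 of rice, a cellulose-cleaving enzyme, had 47.5, 50.6 and 48.5 FPKM in pSC24, against 9.31, 10.3 and 8.28 FPKM in SC (log2 fold change 2.38 ± 0.14, adjusted p = 1.3e-06). Without pSC24 replicate 3 the class had 14 higher genes, and with the mapping-set term 12. Pectin-degrading enzymes had 7 higher (13.5%) and 3 lower (5.77%) of 52, near the 10.3% and 7.57% of all genes, with a median of 0.02. Zm00001eb333580, a pectinesterase match, rose at 231, 190 and 297 FPKM in pSC24, against 10.3, 5.1 and 12.8 FPKM in SC, while the pectate lyase match Zm00001eb148660 fell to 1249, 716 and 1331 FPKM in pSC24, against 3263, 3789 and 3540 FPKM in SC (log2 fold change -1.70 ± 0.18, adjusted p = 3.0e-05). All 3 libraries of each stage stood apart for both. Among 19 genes for lipid transfer proteins, small secreted proteins that bind lipids, 4 were higher and none lower. Their share was 0.0247%, 0.0289% and 0.0367% in pSC24, against 0.0139%, 0.0142% and 0.0143% in SC. The highest of the 4 was Zm00001eb273530 at 44.2, 59 and 75.2 FPKM in pSC24, against 6.88, 4.21 and 5.98 FPKM in SC (log2 fold change 3.37 ± 0.37, adjusted p = 4.3e-05). Without pSC24 replicate 3 the class had 2 higher genes, and with the mapping-set term 1.

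Inside the secretory route, lower genes outnumbered higher ones in folding, and higher genes outnumbered lower ones in traffic. The difference between these classes was not tested. Genes for folding and translocation in the endoplasmic reticulum (ER) were lower in 13 of 85 cases, higher in 3 and held in 48. Their share of the summed FPKM was 1.12%, 1.17% and 0.979% in pSC24, against 1.44%, 1.59% and 1.41% in SC. The protein disulfide-isomerase gene Zm00001eb112590, whose product forms disulfide bonds in secreted proteins, fell to 757, 697 and 975 FPKM in pSC24, against 2395, 2815 and 2156 FPKM in SC (log2 fold change -1.61 ± 0.15, adjusted p = 1.5e-05). A second gene with the same description, Zm00001eb168910, was held at 708, 894 and 695 FPKM in pSC24, against 897, 1347 and 1093 FPKM in SC, although its call was lost with the mapping-set term and without pSC24 replicate 2, there at a log2 fold change of -0.68. The ER chaperone gene Zm00001eb228120, an endoplasmin match chosen after its values were seen, had 172, 157 and 163 FPKM in pSC24, against 442, 505 and 464 FPKM in SC (log2 fold change -1.53 ± 0.10, adjusted p = 1.7e-06). Vesicle traffic genes were higher in 34, lower in 8 and held in 114 of 233 cases, and their share was 0.779%, 0.883% and 0.756% in pSC24, against 0.656%, 0.635% and 0.597% in SC. Without the 200 genes highest in SC the traffic share overlapped between stages. Both directions of change had abundant members. Zm00001eb289730, a match to the small GTPase RABE1c of Arabidopsis, had 90.8, 111 and 128 FPKM in pSC24, against 48.9, 48 and 51.4 FPKM in SC (log2 fold change 1.14 ± 0.14, adjusted p = 9.4e-05). Zm00001eb062120, a match to a subunit of the AP-1 adaptor of the trans-Golgi network, had 45.5, 42.5 and 40.4 FPKM in pSC24, against 112, 110.3 and 123 FPKM in SC (log2 fold change -1.44 ± 0.12, adjusted p = 7.0e-06). With the mapping-set term 20 traffic genes were higher, and the RABE1c match was not among them.

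Most genes of the machinery that makes proteins and energy were held. Of 283 tested genes for cytosolic ribosomal proteins 210 were held, 74.2%, with 4 higher and 4 lower. Of 119 genes of the mitochondrial respiratory chain 97 were held, 81.5%, with 2 higher and 1 lower. Translation factors had 80 of 107 held and 2 lower. The initiation factor 5A gene Zm00001eb108410 stood at 499, 594 and 635 FPKM in pSC24, against 564, 564 and 576 FPKM in SC, a log2 fold change of 0.01 ± 0.11. Across the alternatives 114 to 218 ribosomal protein genes and 72 to 100 respiratory chain genes were held. The shares of the ribosomal and respiratory classes nevertheless were higher in all pSC24 libraries, and that of translation factors overlapped. These gains in share depended on the measure. By counts the respiratory share overlapped, and without the 200 genes highest in SC it was lower in all pSC24 libraries. Without those 200 genes the ribosomal share overlapped. Ribosomal proteins took 1.35%, 1.28% and 1.11% in pSC24, against 0.912%, 0.968% and 0.942% in SC.

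**Figure D3:**
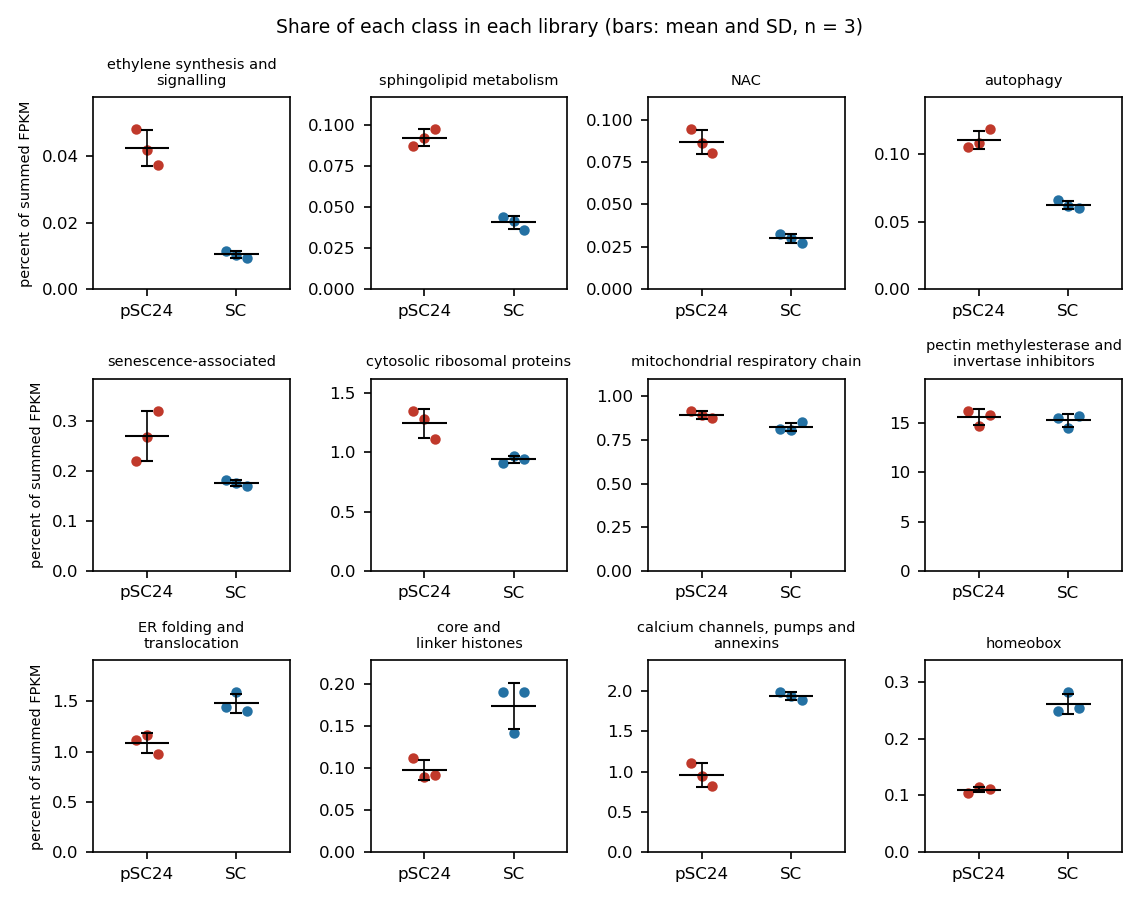
Share of the summed FPKM (percent) taken by 12 classes and families in each library, with the 3 pSC24 libraries left of the 3 SC libraries and bars for the mean and SD. Ethylene, sphingolipid, NAC and autophagy genes gained share without overlap, inhibitors of pectin methylesterase and invertase overlapped, and ER folding genes, histones, the calcium class with annexins and homeobox genes lost share.

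Histone genes were among those lost, and genes of cell division moved in both directions. Histones, the proteins that package DNA, were lower in 15 of 61 cases, held in 5 and higher in none. Their share was 0.112%, 0.0893% and 0.0923% in pSC24, against 0.19%, 0.142% and 0.19% in SC. Zm00001eb056890, closest to a histone H2A variant of rice, had 32.9, 36.3 and 44.1 FPKM in pSC24, against 153, 157 and 174 FPKM in SC (log2 fold change -2.11 ± 0.15, adjusted p = 2.2e-06). The linker histone match Zm00001eb378280 and the H2B gene Zm00001eb040460, both chosen after their values were seen, had 10.9, 4.04 and 2.77 FPKM in pSC24, against 36.1, 55.2 and 56.9 FPKM in SC, and 24.4, 13.1 and 22.4 FPKM in pSC24, against 108, 84.7 and 140.1 FPKM in SC. With the mapping-set term neither was called. The number of lower histone genes ranged from 5 with the mapping-set term to 25 over the alternatives. Zm00001eb294290, the flap endonuclease 1 gene of DNA replication, had 24.9, 37.9 and 43.2 FPKM in pSC24, against 85.7, 77.5 and 66.1 FPKM in SC (log2 fold change -1.13 ± 0.17, adjusted p = 4.3e-04), and its call was lost without pSC24 replicate 1, at a log2 fold change of -0.93. Cyclins are the regulatory subunits of cell cycle kinases. Of 79 cyclin, kinase and inhibitor genes 6 were higher (7.59%), 8 lower (10.1%) and 17 held (21.5%). The higher and lower shares were near the 10.3% and 7.57% of all genes. Their balance turned in 5 of the alternatives, with 10 higher and 6 lower under scaling by total counts. The mitotic cyclin match Zm00001eb369340 (Cyclin-B1-1) fell to 2.3, 8.68 and 26.7 FPKM in pSC24, against 68.5, 101 and 133 FPKM in SC (log2 fold change -3.02 ± 0.61, adjusted p = 0.00269). The pSC24 libraries spread widely but stayed below all SC libraries. In contrast, Zm00001eb323840 on chr7:165666137-165668454, a match to the rice D-type Cyclin-D6-1, had 152, 129 and 127 FPKM in pSC24, against 0.86, 2.18 and 1.97 FPKM in SC (log2 fold change 6.33 ± 0.40, adjusted p = 1.4e-06). The study-named inhibitor of cyclin-dependent kinases ZmKRP1 had 28.8, 43.3 and 45.5 FPKM in pSC24, against 7.32, 2.89 and 4 FPKM in SC (log2 fold change 3.04 ± 0.48, adjusted p = 5.2e-04).

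Cytoskeleton genes were held in 60 (28%), higher in 26 (12.1%) and lower in 14 (6.54%) of 214 cases, shares near those of all genes. The tubulin gene Zm00001eb055850 hardly moved, at 824, 748 and 841 FPKM in pSC24, against 823, 800.2 and 759 FPKM in SC, a log2 fold change of 0.01 ± 0.08. The profilin gene Zm00001eb270920, whose product binds actin monomers, rose at 116, 154 and 143 FPKM in pSC24, against 51.2, 44.8 and 61.3 FPKM in SC (log2 fold change 1.38 ± 0.18, adjusted p = 1.4e-04). Heat shock proteins and chaperonins had 11 lower (10.9%), 5 higher (4.95%) and 30 held genes (29.7%) of 101, with a held share near that of all genes. Zm00001eb029200, an Hsp70 match, stood at 105, 137 and 147 FPKM in pSC24, against 226, 326 and 255 FPKM in SC (log2 fold change -1.06 ± 0.16, adjusted p = 3.2e-04), and this call was lost without pSC24 replicate 1 and without SC replicate 2, at log2 fold changes of -0.94 and -0.88. RNA helicases and splicing factors were mostly held, 142 of 271, with 13 lower and 6 higher. Zm00001eb173350, a match to the splicing factor SLU7, fell to 18.5, 15.7 and 22.3 FPKM in pSC24, against 64.2, 81.3 and 57.5 FPKM in SC (log2 fold change -1.86 ± 0.19, adjusted p = 2.8e-05). Pentatricopeptide repeat proteins, which process organelle RNA, were lower in 16 (4.66%) and higher in 8 (2.33%) of 343 cases. These shares were under the 7.57% and 10.3% of all genes, and 83.7% of the class was unresolved. The direction turned with the mapping-set term to 7 lower and 8 higher.

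Among genes of protein digestion, higher genes outnumbered lower ones for cysteine proteases and autophagy, while most proteasome genes were held. Among 17 genes for cysteine proteases and vacuolar processing enzymes 5 were higher, 1 lower and 4 held. Their share of the summed FPKM overlapped, at 0.23%, 0.22% and 0.208% in pSC24, against 0.219%, 0.22% and 0.188% in SC. The study-named ZmCEP1 on chr1:210055771-210057636, a match to the KDEL-tailed cysteine endopeptidase CEP1 of Arabidopsis, had 118, 97.2 and 101 FPKM in pSC24, against 0, 0 and 0 FPKM in SC. Against a floor of 3 counts over the 3 SC libraries it was at least 3693-fold higher, a bound that covers counting error only, because amplified reads are not independent molecules. The most abundant protease gene of this class, the Cysteine proteinase 2 gene Zm00001eb314220, was nevertheless held at 1093, 1028 and 1123 FPKM in pSC24, against 1599.7, 1655 and 1521 FPKM in SC (log2 fold change -0.57 ± 0.08, adjusted p = 1.8e-04). The same was true of the largest carboxypeptidase, Zm00001eb229790, a match to Serine carboxypeptidase 3 of rice, at 3385, 5237 and 5485 FPKM in pSC24, against 3794, 4310.2 and 3990.2 FPKM in SC, a log2 fold change of 0.21 ± 0.16. Aspartic proteases, subtilisins and carboxypeptidases as a whole had 8 higher (9.09%), 6 lower (6.82%) and 15 held genes (17%) of 88.

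Autophagy genes were higher in 7 of 31 cases and held in 9, and none was lower in any alternative. Their share was 0.105%, 0.108% and 0.118% in pSC24, against 0.0659%, 0.0614% and 0.0597% in SC. Zm00001eb171400, a match to ATG8C, the ubiquitin-like protein that coats autophagosomes, had 28.8, 32.4 and 51.4 FPKM in pSC24, against 13.8, 12.6 and 13.4 FPKM in SC (log2 fold change 1.49 ± 0.21, adjusted p = 2.6e-04). A pair of genes matching ATG4B, the protease that processes ATG8, also rose: Zm00001eb433950 at 32.1, 19.8 and 38.5 FPKM in pSC24, against 3.65, 3.2 and 9.76 FPKM in SC, and Zm00001eb065800 at 23.3, 22 and 29.3 FPKM in pSC24, against 7.98, 8.36 and 6.52 FPKM in SC (log2 fold change 1.69 ± 0.16, adjusted p = 1.2e-05). Zm00001eb151200, an ATG18f match, had 15, 18.1 and 22.6 FPKM in pSC24, against 3.55, 2.73 and 2.86 FPKM in SC (log2 fold change 2.59 ± 0.22, adjusted p = 6.9e-06). These 4 were chosen after their values were seen. The most abundant higher gene by the naming rule, Zm00001eb431210, lost its call in 8 of 23 alternatives. Among these were the mapping-set term and the fit without pSC24 replicate 3, there at a log2 fold change of 0.78. The most abundant held gene, Zm00001eb336470, made 15.8% of the SC share and kept its call in all 22 of its alternatives. The proteasome, in contrast, had 68 of 92 subunit genes held, 4 higher and 1 lower. Its share was higher in all pSC24 libraries, at 0.517%, 0.612% and 0.503% in pSC24, against 0.453%, 0.438% and 0.408% in SC. Without the 200 genes highest in SC the proteasome share overlapped. The regulatory subunit match Zm00001eb128130 was held at 157, 199.6 and 208 FPKM in pSC24, against 144, 154 and 141 FPKM in SC. Ubiquitin ligases and F-box proteins, which mark proteins for the proteasome, had 93 higher, 41 lower and 173 held genes of 598. The highest of the risen, Zm00001eb258590, a match to the F-box protein PP2-B1, had 259.7, 248 and 249 FPKM in pSC24, against 108, 68 and 98.3 FPKM in SC (log2 fold change 1.45 ± 0.18, adjusted p = 1.0e-04).

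Nucleases as a class had 6 higher, 5 lower and 23 held genes of 100, an order that turned in 10 of the alternatives. The study-named nuclease gene ZmNEN4 (Zm00001eb267630), an exonuclease match, had 55.1, 40 and 50.5 FPKM in pSC24, against 0, 0 and 0 FPKM in SC and was at least 1316-fold higher against the same floor. ZmBFN1, a match to the senescence-associated Endonuclease 1 of Arabidopsis, had 17.5, 9.72 and 32.5 FPKM in pSC24, against 1.76, 0.042 and 0.0379 FPKM in SC (adjusted p = 0.0293). This call was lost with the mapping-set term, with DESeq2 on 12 libraries and without pSC24 replicate 1, pSC24 replicate 3, SC replicate 2 or SC replicate 3, at log2 fold changes of 5.08, 4.46, 4.47 and 4.45. A far more abundant nuclease gene, Zm00001eb335070, closest to Endonuclease 4 of Arabidopsis, was held at 507, 590.5 and 801 FPKM in pSC24, against 692, 687 and 780 FPKM in SC. Genes described as senescence-associated had 5 higher, 1 lower and 1 held of 13. ZmS40-3, with a senescence regulator domain, had 278, 409 and 934 FPKM in pSC24, against 43.6, 14.3 and 26.4 FPKM in SC (log2 fold change 4.25 ± 0.55, adjusted p = 1.3e-04). Its level in pSC24 replicate 3 was the highest of all, and every pSC24 library exceeded every SC library. The Senescence associated gene 20 match Zm00001eb396640 was held at 1249.8, 1499.5 and 1785 FPKM in pSC24, against 1570.3, 1626 and 1635 FPKM in SC.

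Among redox genes, the class III peroxidases, secreted enzymes that use hydrogen peroxide in the wall, were higher in 9, lower in 1 and held in 3 of 27 cases, with a median log2 fold change of 1.46. Their share nevertheless overlapped between stages, at 0.29%, 0.291% and 0.253% in pSC24, against 0.249%, 0.288% and 0.234% in SC. A single gene, Zm00001eb315770, made 52.8% of the SC share. Zm00001eb128620, a Peroxidase 24 match, had 321, 358 and 393 FPKM in pSC24, against 103, 155 and 127 FPKM in SC (log2 fold change 1.46 ± 0.14, adjusted p = 1.6e-05). The most abundant of the held, Zm00001eb254170, a match to Peroxidase 65 on a gene model annotated as non-coding, stood at 849.8, 1012 and 925 FPKM in pSC24, against 841, 1041 and 792 FPKM in SC. Antioxidant and glutathione enzymes had 18 higher (8.82%), 15 lower (7.35%) and 64 held (31.4%) of 204, shares near those of all genes. The mitochondrial manganese superoxide dismutase gene Zm00001eb285090 had 169.8, 178 and 202 FPKM in pSC24, against 345, 367 and 383 FPKM in SC, a log2 fold change of -1.01 ± 0.10, just past the threshold of 1. Its call was lost in 6 of the fits that leave out 1 library, at log2 fold changes of -0.95 to -0.99, and with either other scaling. Zm00001eb311110, an L-ascorbate oxidase match, had 165, 149 and 114 FPKM in pSC24, against 43.9, 63.3 and 63.3 FPKM in SC (log2 fold change 1.31 ± 0.23, adjusted p = 9.9e-04). The respiratory burst oxidases, which make superoxide at the plasma membrane, included all 3 calls. ZmRBOH3 rose at 11.2, 17.7 and 15.4 FPKM in pSC24, against 3.76, 2.35 and 2.8 FPKM in SC (log2 fold change 2.30 ± 0.22, adjusted p = 1.6e-05), ZmRBOH4 was held at 43.2, 42.4 and 52.2 FPKM in pSC24, against 62.8, 69.7 and 62 FPKM in SC, and Zm00001eb313960, chosen after its values were seen, fell to 10.8, 3 and 8.08 FPKM in pSC24, against 20.8, 25.1 and 25.3 FPKM in SC (log2 fold change -1.72 ± 0.34, adjusted p = 0.00224). With the mapping-set term the last was not called. Cytochrome P450 genes had 5 higher and 6 lower of 66, and their share was 0.405%, 0.301% and 0.247% in pSC24, against 0.454%, 0.541% and 0.447% in SC. Zm00001eb020100, a match to P450 78A6, had 886, 583 and 634 FPKM in pSC24, against 1370.1, 1877 and 1474 FPKM in SC (log2 fold change -1.18 ± 0.17, adjusted p = 3.5e-04), a call lost with the mapping-set term and with scaling by total counts.

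Of 300 tested lipid genes 50 were higher, 16.7%, 20 lower and 73 held, and the gains differed by class. Peroxisome and beta-oxidation genes had 6 higher, 6 lower and 32 held of 87. Lipases and phospholipases had 29 higher, 11 lower and 20 held genes of 133. Zm00001eb064750, a match to Non-specific phospholipase C4, which cleaves membrane phospholipids, had 111, 113 and 165 FPKM in pSC24, against 0.0874, 0.046 and 1.08 FPKM in SC (log2 fold change 8.26 ± 1.18, adjusted p = 2.6e-04). Without pSC24 replicate 3 the numbers were 22 higher and 18 lower. Fatty acid and wax synthesis had 9 higher, 1 lower and 9 held of 42. Zm00001eb308150, a match to a fatty acyl-CoA reductase, which makes fatty alcohols, had 29.8, 30.8 and 116 FPKM in pSC24, against 0, 0.0751 and 0 FPKM in SC, with pSC24 replicate 3 far above the others. Over 3 SC counts in all its ratio was 2854 (95% counting interval 976 to 13840.2). Sphingolipid genes were higher in 6, lower in 2 and held in 12 of 38 cases, and their share was 0.087%, 0.0922% and 0.0972% in pSC24, against 0.0439%, 0.0418% and 0.0363% in SC. A sphinganine C4-monooxygenase match, at 0 FPKM in every SC library, alone made 45.9% of the pSC24 share. The gene highest in SC, Zm00001eb427000, made 14.2% of the SC share. Without both genes the means were 0.045% in pSC24 and 0.0349% in SC. Chosen after their values were seen, the long-chain base kinase match Zm00001eb427640 rose at 22.4, 25.5 and 21.4 FPKM in pSC24, against 8.6, 8.92 and 8.63 FPKM in SC, and the ceramide inositolphosphotransferase match Zm00001eb147900 fell to 13.3, 8.25 and 12.5 FPKM in pSC24, against 27.7, 35.9 and 28.6 FPKM in SC (log2 fold change -1.45 ± 0.19, adjusted p = 1.3e-04).

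Receptor and signalling genes moved in both directions. Of 279 receptor-like kinase genes 36 were higher (12.9%), 28 lower (10%) and 23 held (8.24%). The higher and lower shares were near the 10.3% and 7.57% of all genes. Most of the class, 68.8%, was unresolved, beside 53.6% of all genes. Zm00001eb380440 on chr9:37568555-37570298, a match to the leucine-rich repeat kinase SERL2 of rice, had 62.9, 89.3 and 121 FPKM in pSC24, against 0, 0 and 0 FPKM in SC and was at least 2019-fold higher. Zm00001eb068000, another receptor-like kinase gene, fell to 32.5, 44.5 and 37.6 FPKM in pSC24, against 97.8, 114 and 94.6 FPKM in SC (log2 fold change -1.43 ± 0.13, adjusted p = 1.4e-05). Of the module around the receptor FERONIA, 4 of 6 study-named genes were higher and 2 held. The secreted peptide gene ZmRALF12 had 59.5, 58.6 and 87.9 FPKM in pSC24, against 2.43, 3.96 and 3.06 FPKM in SC (log2 fold change 4.43 ± 0.33, adjusted p = 3.1e-06), and ZmFERL16, a receptor of the FERONIA family, had 42.6, 42.5 and 30.8 FPKM in pSC24, against 2.69, 5.85 and 3.99 FPKM in SC (log2 fold change 3.20 ± 0.27, adjusted p = 7.0e-06). The study chose this list on these libraries, so its counts are no independent evidence of direction.

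Calcium genes included abundant losses. Calcium sensors and their kinases had 27 higher, 14 lower and 25 held genes of 142, and channels, pumps, exchangers and annexins 12 higher, 10 lower and 20 held of 82. The share of the channel and annexin class was 1.11%, 0.943% and 0.82% in pSC24, against 1.98%, 1.93% and 1.88% in SC. Annexins, which bind membranes when calcium is present, made nearly all of it: split off after the values were seen, the annexins took 1.01%, 0.852% and 0.746% in pSC24, against 1.9%, 1.86% and 1.81% in SC. The other genes of the class took 0.092%, 0.0907% and 0.0738% in pSC24, against 0.0744%, 0.0731% and 0.0679% in SC, where the stages overlapped, and had 11 higher and 6 lower genes of 72. The annexin match Zm00001eb336260 fell to 3364, 2907 and 3022 FPKM in pSC24, against 8542, 8428 and 8694 FPKM in SC (log2 fold change -1.48 ± 0.09, adjusted p = 1.3e-06), a second, Zm00001eb123400, to 2975, 2463 and 2295 FPKM in pSC24, against 5929.6, 6104 and 6207 FPKM in SC (log2 fold change -1.25 ± 0.10, adjusted p = 5.1e-06), and ZmSC57 to 110, 68.2 and 228 FPKM in pSC24, against 1037, 1115 and 1205 FPKM in SC (log2 fold change -3.06 ± 0.33, adjusted p = 3.3e-05). The Annexin D2 match Zm00001eb255240 was held at 471, 437 and 462 FPKM in pSC24, against 667, 724 and 669.9 FPKM in SC. A calmodulin gene, Zm00001eb015200, was higher at 77.6, 117 and 117 FPKM in pSC24, against 44, 46.3 and 48.1 FPKM in SC (log2 fold change 1.16 ± 0.15, adjusted p = 1.3e-04), although not with the mapping-set term, and another, Zm00001eb291340, was held at 72.5, 84.9 and 100.2 FPKM in pSC24, against 83, 85.6 and 93.9 FPKM in SC. Protein phosphatases 2C, which act against kinases in abscisic acid and stress signalling, had 24 higher, 5 lower and 24 held of 103. MAP kinase cascade genes had 6 higher, 1 lower and 10 held of 49, among them Zm00001eb227400, a MAP kinase 12 match, at 26.7, 19.6 and 28.1 FPKM in pSC24, against 1.21, 0.807 and 0.521 FPKM in SC (log2 fold change 4.86 ± 0.73, adjusted p = 3.7e-04).

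Of the hormone classes, ethylene had the highest share of gained genes, 11 of 29, with 1 lower and 3 held. Its share of the summed FPKM was 4.04-fold higher in pSC24, at 0.0479%, 0.0416% and 0.0373% in pSC24, against 0.0116%, 0.0104% and 0.00942% in SC. ZmEIN3 and ZmEIL1, matches to the transcription factors at the end of the ethylene pathway, had 106, 77.6 and 61.6 FPKM in pSC24, against 0.315, 0.256 and 0 FPKM in SC, and 76, 61.6 and 85.1 FPKM in pSC24, against 0.115, 0.121 and 0.0137 FPKM in SC. Both were near 0 in every SC library. The synthesis gene ZmACO20, an ACC oxidase match, had 25.3, 30.1 and 26.8 FPKM in pSC24, against 4.37, 4.16 and 2.26 FPKM in SC (log2 fold change 2.92 ± 0.30, adjusted p = 2.7e-05), and the F-box match Zm00001eb386390, chosen after its values were seen and known in Arabidopsis to target EIN3, had 9.11, 7.85 and 8.23 FPKM in pSC24, against 1.8, 2.18 and 2.75 FPKM in SC (log2 fold change 1.89 ± 0.40, adjusted p = 0.00365). With the mapping-set term 5 of the 29 were higher. ZmACS3, an enzyme match of the preceding step, was unresolved at 6.08, 5.8 and 4.21 FPKM in pSC24, against 2.53, 5.15 and 2.9 FPKM in SC.

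The other hormone classes had lower shares of gained genes, a difference that was not tested. Abscisic acid genes had 3 higher and none lower of 16. The receptor gene ZmPYL9 had 31, 36.5 and 40.1 FPKM in pSC24, against 1.75, 3.82 and 3.08 FPKM in SC (log2 fold change 3.62 ± 0.43, adjusted p = 7.6e-05). Jasmonate and lipoxygenase genes had 9 higher and 3 lower of 45. Zm00001eb373030, a 12-oxophytodienoate reductase match of jasmonate synthesis, had 261, 230.1 and 266 FPKM in pSC24, against 56.8, 8.75 and 32.6 FPKM in SC (log2 fold change 2.94 ± 0.61, adjusted p = 0.00317). Auxin was the hormone class with more losses than gains, 13 lower and 9 higher of 78, though scaling by total counts, DESeq2 on 6 libraries, the mapping-set term and the fit without pSC24 replicate 2 turned that order. The auxin-conjugate hydrolase match Zm00001eb304520 fell to 25.4, 10.2 and 56.3 FPKM in pSC24, against 346, 501 and 362 FPKM in SC (log2 fold change -3.73 ± 0.45, adjusted p = 8.4e-05), whereas its relative Zm00001eb361170 was held at 356, 311 and 306 FPKM in pSC24, against 263, 291 and 279 FPKM in SC. Zm00001eb043760, a match to the auxin-responsive protein SAUR36, rose at 194, 223 and 265 FPKM in pSC24, against 41.1, 32.1 and 9.05 FPKM in SC (log2 fold change 3.04 ± 0.60, adjusted p = 0.00241). Gibberellin and cytokinin genes had 5 higher and 2 lower of 50, led by the cytokinin dehydrogenase match Zm00001eb151670 at 52.1, 79.7 and 70.7 FPKM in pSC24, against 2.96, 0.896 and 0.0921 FPKM in SC (log2 fold change 5.67 ± 1.40, adjusted p = 0.00931).

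Transport and small-molecule metabolism showed single large gains. Sugar transport and invertase genes had 12 higher, 6 lower and 10 held of 60. Zm00001eb317850 on chr7:143196678-143198542, a match to the sugar exporter SWEET11 of rice, had 39, 37.3 and 67.3 FPKM in pSC24, against 0, 0 and 0 FPKM in SC and was at least 1535-fold higher against 3 counts. ABC transporters had 11 higher and 10 lower of 96, an order that turned in 9 of the alternatives. Zm00001eb315790, a match to a petunia transporter of the G family, had 110.2, 118 and 179 FPKM in pSC24, against 0.767, 0.186 and 0 FPKM in SC (log2 fold change 8.73 ± 1.42, adjusted p = 6.6e-04). UDP-glycosyltransferases, which attach sugars to small molecules, had 7 higher, 3 lower and 11 held of 59. One of them, Zm00001eb318580 on chr7:146096773-146098587, had 859, 1183 and 752 FPKM in pSC24, against 22.3, 1.17 and 4.87 FPKM in SC (log2 fold change 6.61 ± 0.88, adjusted p = 1.6e-04) and made 61.4% of the pSC24 share of its class. It was the most abundant of all genes that rose. The glutamine synthetase gene Zm00001eb190340 had 404, 412 and 395 FPKM in pSC24, against 126, 139 and 120.3 FPKM in SC (log2 fold change 1.64 ± 0.14, adjusted p = 6.9e-06), although amino acid recycling as a class had 9 lower and 5 higher of 65. Aquaporins had 1 higher, 1 lower and 3 held of 16. The vacuolar aquaporin gene TIP5-1 (Zm00001eb429760) fell to 0.781, 2.98 and 9.39 FPKM in pSC24, against 36.8, 50.7 and 28.2 FPKM in SC (log2 fold change -3.15 ± 0.59, adjusted p = 0.00167), while SIP1-2 (Zm00001eb349840) was held at 139, 178 and 179 FPKM in pSC24, against 149, 155 and 154 FPKM in SC.

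**Figure D4:**
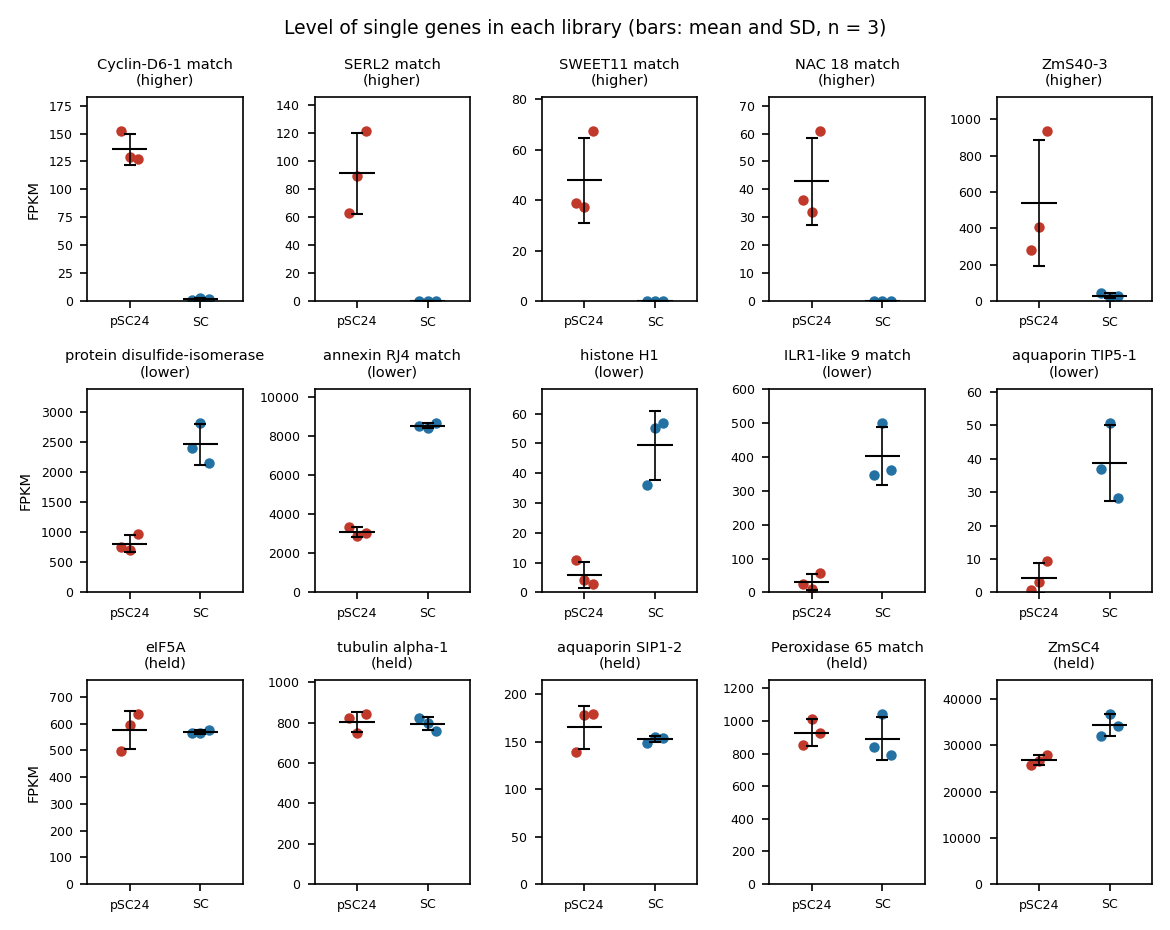
FPKM of 15 genes in each library (linear axes from 0), with the 3 pSC24 libraries left of the 3 SC libraries and bars for the mean and SD. The top row shows genes gained in pSC24, among them the SERL2 and SWEET11 matches at 0 in every SC library, the middle row genes lost, and the bottom row genes held, such as the tubulin gene at 748 to 841 FPKM in pSC24 and 759 to 823 FPKM in SC.

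The deposited transcription factor column lists a protein domain for 12538 genes, of which only 1818 carry a domain of one of 27 transcription factor families. Of 665 tested transcription factor genes 109 were higher, 16.4%, 53 were lower, 7.97%, and 86 were held, 12.9%. Their median log2 fold change was 0.36. Their share of the summed FPKM overlapped between stages, with means of 0.761% in pSC24 and 0.823% in SC. Of the 16 families with at least 10 tested genes, 8 had more higher than lower, 3 more lower, and 5 as many.

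**Figure D5:**
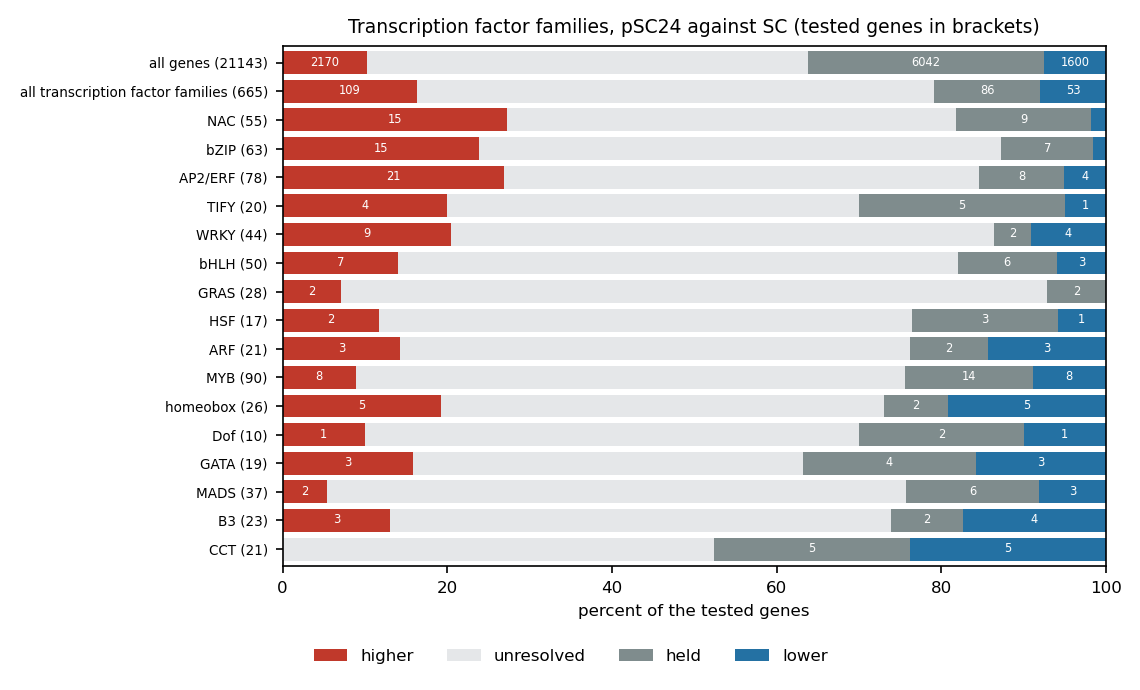
Percent of the tested genes of each transcription factor family that were higher in pSC24, unresolved, held or lower, with numbers of genes in the bars. NAC, bZIP and AP2/ERF genes lead, with 15 of 55, 15 of 63 and 21 of 78 higher, and the CCT family ends the order with 5 of 21 lower and none higher.

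NAC factors, a plant family with many members in senescence and cell death, were higher in 15 of 55 cases, lower in 1 and held in 9, and 10 were switched on. Switched on means called higher, averaging 5 FPKM or more in pSC24 and under 1 FPKM in SC. The share of the family was 0.0942%, 0.0863% and 0.0803% in pSC24, against 0.0324%, 0.0302% and 0.0274% in SC. ZmNAC087L2 (Zm00001eb330910) on chr7:182734869-182736688 led with 145, 131 and 133 FPKM in pSC24, against 0.398, 0 and 0 FPKM in SC (adjusted p = 6.0e-05). Zm00001eb175500, a NAC 18 match, and Zm00001eb317890, a NAC 83 match, both chosen after their values were seen, had 36, 31.8 and 60.8 FPKM in pSC24, against 0, 0 and 0.0389 FPKM in SC, and 5.39, 4.02 and 25.8 FPKM in pSC24, against 0, 0 and 0 FPKM in SC. In the NAC 83 match, pSC24 replicate 3 stood far above the other two. Its call was lost with the mapping-set term. Not every member was gained: Zm00001eb191020, a NAC 78 match, was held at 43.2, 38.6 and 36.4 FPKM in pSC24, against 45.6, 46.5 and 40.7 FPKM in SC.

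AP2/ERF factors, many of which act in ethylene and stress responses, were higher in 21, lower in 4 and held in 8 of 78 cases, and 10 were switched on. Among them ZmEREB65 had 26.1, 25.9 and 33.3 FPKM in pSC24, against 0, 0 and 0 FPKM in SC, at least 546-fold higher against the floor, and ZmEREB202 had 28.5, 43.8 and 41.2 FPKM in pSC24, against 0.435, 0 and 0 FPKM in SC (log2 fold change 7.99 ± 1.01, adjusted p = 1.1e-04). The tobacco ERF4 match Zm00001eb291730 was lower at 38.9, 37.3 and 33 FPKM in pSC24, against 67.4, 83.9 and 100.4 FPKM in SC (log2 fold change -1.22 ± 0.23, adjusted p = 0.00166), a call lost with scaling by total counts and with the mapping-set term. Zm00001eb074910, another ERF match, chosen after its values were seen, fell to 1, 0.836 and 2.77 FPKM in pSC24, against 12.8, 22 and 16.5 FPKM in SC (log2 fold change -3.49 ± 0.58, adjusted p = 7.9e-04). bZIP factors had 15 higher and 1 lower of 63. The bZIP 29 match Zm00001eb037460, chosen likewise, had 18.7, 23.9 and 15.2 FPKM in pSC24, against 1.91, 0.718 and 0.467 FPKM in SC (log2 fold change 4.21 ± 0.49, adjusted p = 6.5e-05). WRKY factors had 9 higher and 4 lower of 44. Zm00001eb357350, a WRKY 9 match, had 19.1, 15.5 and 21.6 FPKM in pSC24, against 0, 0 and 0 FPKM in SC and was at least 415-fold higher. With the mapping-set term 15 AP2/ERF, 13 NAC, 8 bZIP and 4 WRKY genes were higher.

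Smaller families gave single strong gains and losses. The TIFY 9 match Zm00001eb084980, a jasmonate repressor family member, had 29.7, 42.7 and 65.7 FPKM in pSC24, against 0.191, 0.669 and 0.181 FPKM in SC (log2 fold change 7.03 ± 0.68, adjusted p = 1.6e-05). The GATA 8 match Zm00001eb258290 had 107, 95.3 and 80.5 FPKM in pSC24, against 15.2, 15 and 17.7 FPKM in SC (log2 fold change 2.55 ± 0.21, adjusted p = 6.0e-06), and the basic helix-loop-helix match Zm00001eb289490 (ILR3) had 49.7, 66.7 and 70.8 FPKM in pSC24, against 4.87, 2.39 and 4.07 FPKM in SC (log2 fold change 4.03 ± 0.38, adjusted p = 1.6e-05). A second ILR3 match, Zm00001eb209480, was held at 43.2, 52.5 and 49.4 FPKM in pSC24, against 47.7, 52.9 and 49.3 FPKM in SC. The Dof gene MNB1A (Zm00001eb033670) fell to 4.56, 8.61 and 12.2 FPKM in pSC24, against 73.3, 94.3 and 76 FPKM in SC (log2 fold change -3.28 ± 0.29, adjusted p = 9.6e-06), and the Auxin response factor 1 match Zm00001eb118970 to 14.3, 10.7 and 20.7 FPKM in pSC24, against 77, 89.4 and 70.8 FPKM in SC (log2 fold change -2.39 ± 0.21, adjusted p = 9.1e-06). CCT domain genes, known from flowering time control, were lower in 5 of 21 cases and higher in none, with the CO3 match Zm00001eb246780, annotated as non-coding, at 1.9, 2.45 and 3.82 FPKM in pSC24, against 14.6, 18.9 and 13.4 FPKM in SC (log2 fold change -2.53 ± 0.34, adjusted p = 1.9e-04). With the mapping-set term 2 CCT genes were lower. The share of the family was nevertheless higher in all pSC24 libraries, at 0.0156%, 0.0148% and 0.0144% in pSC24, against 0.014%, 0.0142% and 0.014% in SC.

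Homeobox and MYB, the families of the study-named synergid factors, took lower shares in pSC24, in MYB through ZmMYB98. Homeobox genes had 5 higher and 5 lower of 26, and took 0.105%, 0.115% and 0.111% in pSC24, against 0.249%, 0.281% and 0.253% in SC. ZmHB81 fell to 155, 203 and 255 FPKM in pSC24, against 664, 752 and 697 FPKM in SC (log2 fold change -1.80 ± 0.15, adjusted p = 5.9e-06), and ZmHB24 to 271, 250.3 and 266 FPKM in pSC24, against 633, 684 and 679 FPKM in SC (log2 fold change -1.35 ± 0.11, adjusted p = 7.6e-06). ZmHB44 had 5.89, 12.4 and 82.7 FPKM in pSC24, against 374, 514 and 451 FPKM in SC (log2 fold change -3.75 ± 0.70, adjusted p = 0.00173). Its level in pSC24 replicate 3 was several times that of the other two, as was that of ZmMYB98, at 59.7, 55.2 and 179 FPKM in pSC24, against 1048, 1205 and 1106 FPKM in SC. Both stayed below all SC libraries. In contrast, Zm00001eb130180, a knotted-1-like match, rose at 11.6, 34.8 and 36.1 FPKM in pSC24, against 6.36, 3.01 and 5.94 FPKM in SC (log2 fold change 2.41 ± 0.48, adjusted p = 0.00264), but not with the mapping-set term. MYB genes had 8 higher, 8 lower and 14 held of 90, and took 0.0761%, 0.0749% and 0.0801% in pSC24, against 0.171%, 0.18% and 0.161% in SC. ZmMYB98 made 69.4% of the SC share, and without it the family took 0.068%, 0.0676% and 0.0599% in pSC24, against 0.0553%, 0.0518% and 0.0495% in SC, higher in every pSC24 library. The other MYB genes included the KUA1 match Zm00001eb172880, held at 49.9, 46.3 and 59.9 FPKM in pSC24, against 57.9, 67.8 and 52.1 FPKM in SC.

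Read by its single domain names, the column gave 178 domains with at least 10 tested genes. The share of higher genes was highest for the copper-binding-like domain, 7 of 21 (33.3%), and was also high for sodium/proton exchangers at 31.2%, 5 of 16, and a glycosyltransferase domain of family 8 at 30%, 9 of 30. Exo70, a subunit of the complex that tethers secretory vesicles, had 5 of 19 higher, 26.3%. The share of lower genes was highest for the ACT domain at 30%, but this rests on 3 of 10 genes. The Piwi domain of argonaute proteins had 5 of 20 lower, 25%, and 3 higher, and cyclin C-terminal, CCT and potassium transporter domains had 5 of 21 lower each, 23.8%. HSP70 had 7 of 30 lower (23.3%) and the histone fold 23.1%. Held genes were frequent for the Mov34 domain of proteasome and translation regulators at 88.2%, proteasome subunits at 79.4%, ESCRT-III of membrane scission at 72.2%, actin at 63.6%, tubulin at 62.5% and the RNA recognition motif at 57.4%, 135 of 235. These shares stand beside 10.3%, 7.57% and 28.6% over all genes and were picked from the upper ends of the orders.

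Over all genes, 368 were switched on, 1.74%, and 58 were switched off, 0.274%, by the same levels in the opposite direction. Chosen after their values were seen, 3 further examples show the range. Zm00001eb240200 on chr5:159602317-159602948, a non-coding transcript, was the most abundant of the switched-on genes at 246, 267 and 601 FPKM in pSC24, against 0.593, 0.872 and 0 FPKM in SC (log2 fold change 9.56 ± 1.04, adjusted p = 3.9e-05). Zm00001eb126820, a PfkB-type sugar kinase match, had 143, 127 and 179 FPKM in pSC24, against 0.177, 1.94 and 0.81 FPKM in SC (log2 fold change 7.26 ± 1.11, adjusted p = 4.4e-04). Zm00001eb099950, annotated as non-coding and closest to the maize 16 kDa gamma-zein, a storage protein of the endosperm, had 61.1, 75.3 and 149.5 FPKM in pSC24, against 0, 0 and 0 FPKM in SC. It was at least 1597-fold higher, and it was the one gene called higher among the 8 tested of the endosperm list. Of the genes switched off, the polygalacturonase match Zm00001eb382310 stood at 0.525, 0.289 and 1.61 FPKM in pSC24, against 39, 50.9 and 44.6 FPKM in SC (log2 fold change -5.81 ± 0.50, adjusted p = 8.5e-06). The Lipid phosphate phosphatase 2 match Zm00001eb294840 stood at 0.5, 0.568 and 0.562 FPKM in pSC24, against 12.6, 18.4 and 13.4 FPKM in SC (log2 fold change -4.77 ± 0.41, adjusted p = 8.8e-06). The calcium-dependent protein kinase match Zm00001eb408020 stood at 0.495, 0.64 and 0.917 FPKM in pSC24, against 7.85, 10.3 and 8.05 FPKM in SC (log2 fold change -3.68 ± 0.28, adjusted p = 3.2e-06). The FLOWERING LOCUS T match Zm00001eb246470 stood at 2.01, 0.12 and 0 FPKM in pSC24, against 7.37, 13.1 and 12.5 FPKM in SC (log2 fold change -3.99 ± 0.90, adjusted p = 0.0056). These 4 were chosen after their values were seen. Among transcription factors, 37 were switched on and 2 off.

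The genes that the study names by identifier fell into the same groups. Of 18 secreted or abundant synergid genes 14 were held, 4 were lower and none was higher. The losses were ZmSC8 at 1578, 4174 and 9402 FPKM in pSC24, against 24625, 25640.3 and 32327 FPKM in SC, ZmSC21 at 2744, 3251 and 3925 FPKM in pSC24, against 9464, 10495 and 11346 FPKM in SC, ZmSC46 at 444, 612 and 721 FPKM in pSC24, against 1540.3, 1349.8 and 1392 FPKM in SC and ZmSC57, given with the annexins. ZmSC8 spread widely among the pSC24 libraries, all of them below SC. All 10 cell death genes (ZmBFN1 with the limit given above) and 12 of 13 ethylene genes were higher, and 4 of 5 transcription factors of the synergid were lower, with ZmHB42 unresolved at 228, 253 and 226 FPKM in pSC24, against 411, 484 and 453 FPKM in SC, a log2 fold change of -0.94 ± 0.12. Of the ethylene genes, ZmACO5 had 1.35, 6.29 and 4.87 FPKM in pSC24, against 0, 0.523 and 0 FPKM in SC, and its call was lost with the mapping-set term, with DESeq2 on 12 or 6 libraries and in 5 of the fits that leave out 1 library, with a log2 fold change of 4.43 without pSC24 replicate 3. These lists were chosen by the study on these libraries and are not independent evidence of direction.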

How the data were processed

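Per the study's methods, the authors trimmed reads with Cutadapt 1.15, aligned them with HISAT2 2.0.5 to the B73 assembly AGPv5, on which all coordinates are given, and counted fragments per gene with featureCounts 1.5.0-p3. The deposited counts are raw, and the deposited FPKM were computed by the authors from counts and gene length. Strand and multiple alignments were not given in the sources used here, so near-identical, overlapping and antisense genes are uncertain. Counts of all 12 libraries were fitted with edgeR 4.0.16 in R 4.3.3 (TMM, filterByExpr, quasi-likelihood test, Benjamini-Hochberg adjustment over 21143 genes). DESeq2 1.42.0 was an alternative. On simulated counts of 20533 genes, 78% of genes raised and 72% of genes lowered by 3 log2 units were called, 50% and 42% at 1.5 log2 units, and 3 of 20333 unchanged genes (0.0148%). The simulation changed only 50 genes at each size, all above a minimum mean count. It left all other genes equal between stages and held no mapping-set effect. Its rates therefore need not hold for the real comparison. Classes came from words in the descriptions. For each class or family with at least 10 tested genes the text names from the most abundant higher, lower and held gene (called genes only where libraries did not overlap and the higher mean reached 5 FPKM), besides genes the study names. The members and lists were chosen with earlier results of these data known.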

Additional observations from a re-analysis of the deposited data

How the results depend on the processing

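These alternatives moved a count of the report by over 1.5 times. A mapping-set term in the fit gave 1351 higher and 3960 held genes, and with the replicate block and the mapping-set term together 975 were higher, 930 lower and 3305 held. With glmTreat against a log2 fold change of 1, 950 were higher and 563 lower, and at an adjusted p under 0.01, 1410 were higher. A margin of 1.5-fold left 1901 held. Asking for a mean of 1 or 10 FPKM in the higher stage gave 820 or 192 genes switched on and 290 or 11 switched off, and asking for under 0.5 FPKM in the lower stage gave 21 switched off. Classes whose share was below SC in all pSC24 libraries numbered 9 by counts and 10 without the 200 genes highest in SC. Leaving out 1 library gave 1761 to 2248 higher, 1262 to 1682 lower and 5164 to 6071 held genes, 291 to 352 switched on, 42 to 81 switched off, and 35 to 45 classes and families with more higher than lower genes. Of 66 classes and families, 19 turned their balance of higher and lower genes in some alternative. Of 188 called genes named or eligible for naming, 112 kept their call in every alternative. Across genes, deviations from the stage mean correlated at 0.033, 0.015 and -0.033 between same-numbered pSC24 and SC libraries. Between differently numbered ones the correlations were -0.057 to 0.039. Whether same-numbered libraries shared a plant, day or preparation was not tested. With the replicate block 2056 genes were higher, 1574 lower and 5854 held, and 1 of the 188 lost its call. The cause of these differences was not tested.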

Other observations

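A small part of the matches covered genes that moved in opposite directions. Of 3758 Swiss-Prot proteins that were the closest match of at least 2 tested genes, 107 had both a higher and a lower gene. These examples were chosen after their values were seen. Of the Pectinesterase inhibitor 8 matches, Zm00001eb242990 averaged 514 FPKM in pSC24 and 58.1 FPKM in SC (log2 fold change 3.14), and Zm00001eb242950 averaged 6.3 FPKM in pSC24 and 35.2 FPKM in SC (-2.50). Of the matches to NETWORKED 4A, an actin-binding protein of the vacuole membrane in Arabidopsis, Zm00001eb123210 averaged 36.2 FPKM in pSC24 and 3.33 FPKM in SC, and Zm00001eb281940 averaged 20.5 FPKM in pSC24 and 44.8 FPKM in SC. Of the matches to Dynamin-2A, a membrane scission GTPase, Zm00001eb280130 averaged 42.3 FPKM in pSC24 and 17 FPKM in SC, and Zm00001eb041920 averaged 18.6 FPKM in pSC24 and 43.7 FPKM in SC. Whether reads shared by similar copies contribute was not tested.

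Genes without a Swiss-Prot match or a named domain made up a large part of the transcripts. The 3890 tested ones took a mean of 33% of the summed FPKM in pSC24 and 35.4% in SC, and 341 of them were higher, 353 lower and 643 held. Of 502 tested non-coding gene models 67 were higher, 26 lower and 42 held, and 20 were switched on.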
